A study of Mus musculus with 30 samples.

Results

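The comparison described here set the fracture callus of diet-induced obese (DIO) mice against that of lean mice on day 3 (d3) after fracture, gene by gene. Its libraries were chosen by their labels alone: 3 DIO and 3 Lean calli of d3, which are 6 of the 30 RNA-seq libraries of the series. All 30 came from DIO or Lean callus between d3 and d21, and the purpose of the study was to follow immune cells in the healing callus of lean and obese animals. The mice were male C57BL/6J, 20 weeks old at fracture, and carried no engineered allele. DIO mice had been raised on a high-fat diet and Lean mice on a low-fat control diet, and both stayed on their diet until harvest. Every mouse received the same open osteotomy of the right tibia, held with an intramedullary nail, and each library was made from the callus of 1 mouse after the soft tissue around it had been removed. Obesity, raised blood glucose and the diet itself came together in this model and cannot be told apart here.

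On d3 a fracture of a mouse long bone is in its inflammatory phase: the clot between the bone ends fills with leukocytes while periosteal cells begin to divide and lay down matrix. The marrow cavity opens into the fracture, so a callus holds cells that arrive from blood, cells of the marrow and cells of the periosteum side by side. Neutrophils are the first leukocytes at such a site, macrophages follow and clear debris, and eosinophils, lymphocytes, red cell precursors and megakaryocytes are normal inhabitants of the marrow. In bulk RNA, fewer cells of a type and less RNA per cell cannot be told apart.

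Across the callus, the lists in which all tested genes had lower means in DIO mice included those of neutrophils, red cell precursors, platelets and B and plasma cells, while the main macrophage markers overlapped between the diets. Genes with higher means in DIO mice included many cartilage and fibrous matrix genes, the muscle gene Sln, and genes of fatty acid use. The median log2 difference (DIO minus Lean) of the cartilage list fell from 0.58 to 0.18 without DIO replicate 3. That of the fibrous matrix list fell from 0.22 to 0.086 without Lean replicate 2. No gene passed the main test after adjustment for the number of genes, so the differences are given below as values with their spread.

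Library totals ran from 16115195 to 26365620 counts in Lean and from 15597137 to 22743115 in DIO calli, and mitochondrially encoded genes took 1.84% to 3.34% of each. Expression is given as counts per 1000000 counts of the library (CPM), scaled with TMM factors, and the 3 values of a group follow the order of replicates 1, 2 and 3. On the first principal component, which held 51.2% of the variance, Lean calli lay between -59.8 and -8.78 and DIO calli between 16.8 and 35.97. Lean replicate 2 lay at -59.8, apart from the other libraries, and values without it are given for many lists and some genes. A gene given without such a value may still depend on it. Deviation of a library's genes from the mean of the 6 libraries ran with GC content to an unequal extent (Spearman's rho across genes from -0.31 in Lean replicate 2 to 0.24 in DIO replicate 1), as did the DIO minus Lean difference itself (rho = 0.27 with GC content, 0.02 with transcript length); genes are not independent replicates, and no test was made of these values. Markers of the labelled tissue were present in all 6 libraries, among them the osteoblast transcription factor Sp7 (287, 244 and 324 CPM in Lean and 193, 382 and 397 CPM in DIO calli) and the periosteal progenitor gene Prrx1 (122, 114 and 167 CPM in Lean and 142, 177 and 166 CPM in DIO calli). Skeletal muscle was present as well, with the muscle actin Acta1 at 5149, 2986 and 5279 CPM in Lean and 7883, 4277 and 6922 CPM in DIO calli. The skin keratin Krt14 reached at most 0.262 CPM in any library, and Krt5 at most 0.0622 CPM.

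The deposited table lists 43629 genes, of which 24389 had at least 1 count in these 6 libraries and 15772 had enough counts to test. Of these, 0 (0%) reached an adjusted p under 0.05 in edgeR's quasi-likelihood test with Benjamini-Hochberg adjustment, and 2374 (15.1%) had an unadjusted p under 0.05. The same libraries gave 728 calls (4.62%) with DESeq2, 594 lower (3.77%) and 134 higher (0.85%) in DIO, and 33 calls with limma voom and sample weights. By edgeR's unadjusted p, 1433 genes (9.09%) were lower and 941 (5.97%) higher in DIO calli. Without regard to size, 7729 genes (49%) had a lower and 8043 (51%) a higher mean in DIO, and the median log2 difference over all genes was 0.0063. Every DIO callus lay below every Lean callus for 1803 genes (11.4%) and above it for 1528 (9.69%). These percentages are the background for the counts of gene lists below, in which "lower" and "higher" refer to DIO relative to Lean calli, p under 0.05 means edgeR's unadjusted p, and log2 differences are DIO minus Lean with their SE.

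The gene of smallest p was Tnfrsf14 (ENSMUSG00000042333, GRCm38 chr4:154921933-154928563), which encodes HVEM, a receptor of the TNF receptor family on leukocytes. Its values were 18.8, 32.8 and 21.97 CPM in Lean and 4.34, 4.10 and 3.52 CPM in DIO calli. The groups did not overlap, the log2 difference was -2.62 ± 0.24, and edgeR's Benjamini-Hochberg adjusted p was 0.0594. Without Lean replicate 2 the difference was -2.35. Tnfrsf14 shares stretches of up to 162 bases with 40 other genes, so some of its reads may belong to them. Leaving out gene models without a name, the 9 lower genes that followed it in order of p were Pglyrp1, Ear1, Ifitm6, Lcn2, Retnlg, Cd4, Ear2, Alox15 and Ear6, each with an adjusted p of 0.0787. A threshold of 0.1 on edgeR's adjusted p, chosen after the values were seen, would hold 114 genes (0.723%).

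**Figure D1:**
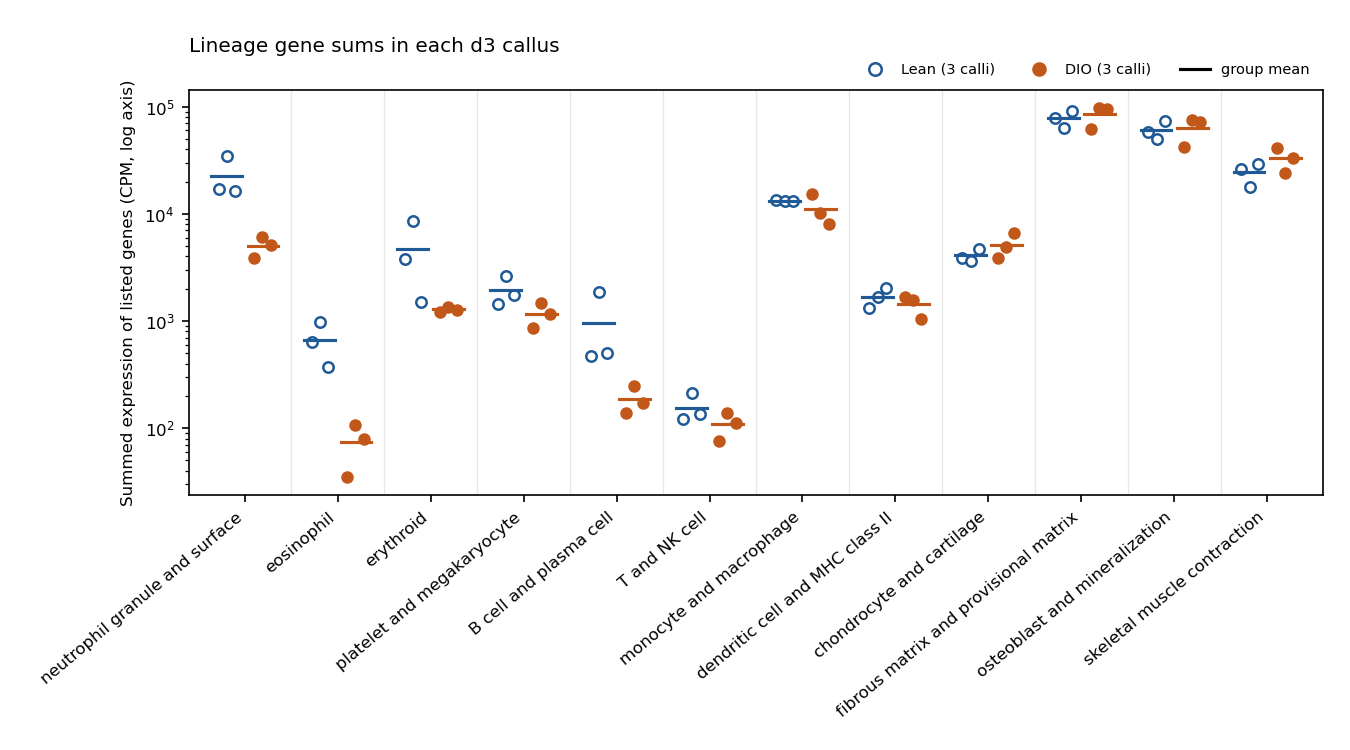
Summed expression (CPM, log axis) of the listed genes of each blood and tissue lineage in each d3 callus: open circles are the 3 Lean calli, filled circles the 3 DIO calli, and short lines the group means. The neutrophil sum lies between 16483 and 34669.8 CPM in Lean and between 3885 and 6031 CPM in DIO calli, while the monocyte and macrophage sums of the groups overlap.

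Neutrophil genes were lower in DIO calli as a group. Developing neutrophils fill their granules in sequence in the marrow, first the primary granules with myeloperoxidase and serine proteases, then the specific granules with lactoferrin and other antimicrobial proteins, and last the gelatinase granules, and they put receptors for chemokines and bacterial peptides on their surface as they mature. All 32 genes of the neutrophil list were tested and all 32 had a lower mean in DIO calli. p was under 0.05 for 29 of them (lower genes over the whole table: 9.09%), the groups did not overlap for 27 (11.4%), and DESeq2 called 24 (3.77%). The summed expression of the list was 16877, 34669.8 and 16483 CPM in Lean and 3885, 6031 and 5150.5 CPM in DIO calli, so every DIO callus was below every Lean callus. Its median log2 difference was -1.90, and -1.40 without Lean replicate 2.

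The alarmins S100a8 and S100a9, which together form calprotectin and make up much of a neutrophil's cytosolic protein, were the most abundant of the list. S100a8 stood at 2081, 5119 and 2240.2 CPM in Lean and 422, 702 and 678 CPM in DIO calli (log2 difference -2.39 ± 0.38). S100a9 stood at 4533, 9358 and 4232 CPM in Lean and 819, 1205 and 1205 CPM in DIO calli (-2.49 ± 0.34). For both genes the lowest Lean callus was far above the highest DIO callus, and Lean replicate 2 was the highest of all. Neutrophil receptors differed less: Cxcr2, the receptor for neutrophil-attracting chemokines, had 43.1, 103 and 39.8 CPM in Lean and 28.3, 28.6 and 16.5 CPM in DIO calli, and Csf3r, the receptor for granulocyte colony-stimulating factor, had 244, 427 and 208 CPM in Lean and 217, 196 and 110.0 CPM in DIO calli. Csf3r overlapped between the groups (log2 difference -0.75 ± 0.32, -0.37 without Lean replicate 2), and Cxcr2 did not (-1.34 ± 0.38, -0.76).

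Split by stage, the granule genes were lower throughout. These subgroups were drawn after the values were seen and are descriptions. Primary granule genes, 4 in all, had a median log2 difference of -1.86, among them Mpo, the myeloperoxidase that makes hypochlorous acid (446, 803 and 322 CPM in Lean and 97.6, 199.7 and 96.4 CPM in DIO calli), and Elane, neutrophil elastase (223, 344 and 165 CPM in Lean and 48.4, 99.8 and 41.3 CPM in DIO calli). The 7 specific granule genes had a median of -2.34. The 6 genes of the last granules and the cytosol had a median of -2.44, and the 8 late surface receptors of -1.25. Without Lean replicate 2 the same medians were -1.45, -1.91, -1.94 and -0.76. Mmp9, a gelatinase that osteoclasts also make, had the smallest difference of the last granule group (425, 722 and 484 CPM in Lean and 185, 396 and 323 CPM in DIO calli).

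The promoters of 4 granule genes with low values in DIO calli are shown because C/EBP factors, which recognise the letters TTGCNNAA and their reverse complement TTNNGCAA, are the textbook regulators of these genes. The sequences are the 250 bases upstream of the RefSeq transcription start in GRCm38.p6, written 5′ to 3′ on the gene's strand, with matches to those letters in capitals. The motif was chosen after the values were seen.
Ngp (neutrophilic granule protein, chr9:110419558-110419807, plus strand): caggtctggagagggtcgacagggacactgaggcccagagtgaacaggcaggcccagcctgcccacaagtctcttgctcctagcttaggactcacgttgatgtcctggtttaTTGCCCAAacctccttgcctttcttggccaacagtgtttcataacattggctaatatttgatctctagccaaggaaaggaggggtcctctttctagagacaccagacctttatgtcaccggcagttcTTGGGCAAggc
Ltf (lactoferrin, chr9:111019042-111019291, plus strand): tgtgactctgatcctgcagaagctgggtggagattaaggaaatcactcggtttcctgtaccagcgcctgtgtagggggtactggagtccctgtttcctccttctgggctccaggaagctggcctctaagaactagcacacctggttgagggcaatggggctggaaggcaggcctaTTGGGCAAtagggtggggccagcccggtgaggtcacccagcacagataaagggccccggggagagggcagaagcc
Mmp8 (neutrophil collagenase, chr9:7558179-7558428, plus strand): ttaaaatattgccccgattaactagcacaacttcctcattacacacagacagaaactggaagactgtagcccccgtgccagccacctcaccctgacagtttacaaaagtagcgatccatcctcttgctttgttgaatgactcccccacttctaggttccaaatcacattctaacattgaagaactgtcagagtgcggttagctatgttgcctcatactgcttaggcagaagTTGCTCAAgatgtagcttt
Lcn2 (lipocalin-2, chr2:32387740-32387989, minus strand): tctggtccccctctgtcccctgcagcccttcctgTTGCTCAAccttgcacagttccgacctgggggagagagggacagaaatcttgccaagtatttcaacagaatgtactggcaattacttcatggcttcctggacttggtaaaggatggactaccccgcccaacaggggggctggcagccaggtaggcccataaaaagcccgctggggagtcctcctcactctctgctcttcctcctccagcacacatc
Such a match was present upstream of 9 of the 28 neutrophil list genes that had a promoter in the RefSeq table (32.1%), against 10.8% of all 27025 genes with one. The 4 genes shown were picked from those with a match. The same letters lay upstream of 3 of 20 erythroid genes and 2 of 8 eosinophil genes. The share was not particular to this motif: AGATAA or its reverse complement TTATCT, the letters of GATA factors, lay upstream of 7 of the same 28 neutrophil genes (25%), against 11.4% of all genes, and of 6 of 20 erythroid genes. A match is a description of the letters, not evidence of a bound factor.

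Values of these 4 genes were apart between the diets in all 6 calli. Ngp, a marker of myelocytes, had 3279.7, 6427 and 3099.6 CPM in Lean and 568, 1083 and 882 CPM in DIO calli (log2 difference -2.34 ± 0.35). Ltf, which binds iron in the specific granules, had 1201, 2791 and 1278 CPM in Lean and 213, 410.2 and 369 CPM in DIO calli (-2.41 ± 0.38). Mmp8, which cuts fibrillar collagen, had 76.9, 228 and 95.4 CPM in Lean and 17.2, 22.4 and 17.99 CPM in DIO calli (-2.80 ± 0.40). Lcn2, which withholds iron from bacteria by binding their siderophores, averaged 1237 ± 484 CPM in Lean and 273 ± 49.7 CPM in DIO calli (SD, n = 3). In each of the 4, Lean replicate 2 was the highest library, and without it the log2 differences were -1.92, -1.91, -2.16 and -1.81. Camp, the precursor of the antimicrobial peptide cathelicidin, and Padi4, the enzyme that citrullinates histones when neutrophils release their chromatin, were lower as well (-2.38 and -1.90), as were Pglyrp1, a granule protein that binds bacterial peptidoglycan (153, 259 and 158 CPM in Lean and 31.2, 49.5 and 42.4 CPM in DIO calli), and Retnlg, a resistin-like protein of mature neutrophils (227, 613 and 261 CPM in Lean and 41.03, 55.3 and 54.3 CPM in DIO calli).

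**Figure D2:**
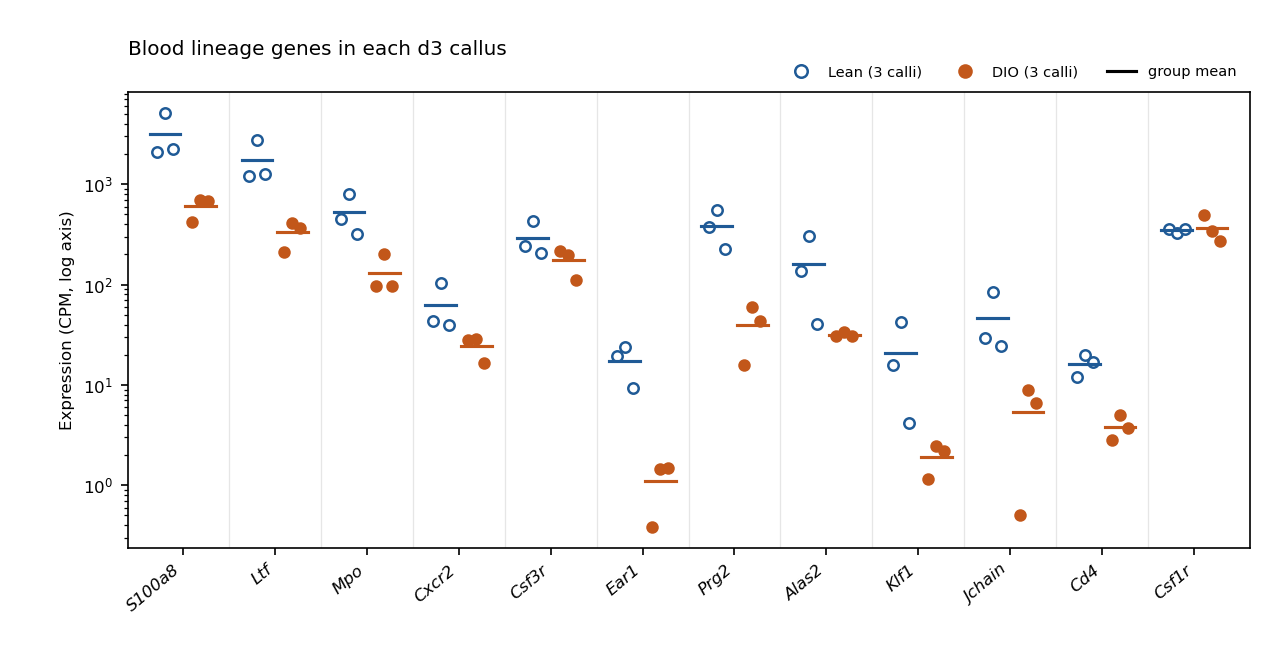
Expression (CPM, log axis) of 12 lineage genes in each d3 callus, with open circles for Lean, filled circles for DIO and short lines for group means. The groups are apart for all 12 genes except Csf1r, a macrophage receptor, and Csf3r, whose points overlap.

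Eosinophil genes had low values in DIO calli. The 10 genes of this group were put together after Ear1, Ear2, Ear6 and Alox15 had turned up among the 10 lower genes of smallest p, so their counts and median follow in part from that choice and are set against no other list. Of the 9 that could be tested, all 9 were lower with p under 0.05 and without overlap, and DESeq2 called 8; the median log2 difference was -2.98 (-2.70 without Lean replicate 2). Ear1, an eosinophil-associated ribonuclease (ENSMUSG00000072601, chr14:43818765-43875517), had 19.3, 23.8 and 9.32 CPM in Lean and 0.383, 1.44 and 1.47 CPM in DIO calli. Prg2, the major basic protein of the eosinophil granule, had 376, 558 and 224 CPM in Lean and 15.6, 60.1 and 43.8 CPM in DIO calli (log2 difference -3.27 ± 0.51). Epx, eosinophil peroxidase, had 87.6, 166 and 44.5 CPM in Lean and 6.19, 16.7 and 14.7 CPM in DIO calli (-2.98 ± 0.51).

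The mean of Prg2 in Lean calli was 9.65-fold that in DIO calli on the scale of the fit, and its lowest Lean value was well above its highest DIO value. The surface lectin Siglecf showed a smaller difference (7.46, 9.73 and 5.14 CPM in Lean and 1.79, 2.31 and 1.41 CPM in DIO calli, log2 difference -2.01 ± 0.32), and Alox15, a lipoxygenase of eosinophils and some macrophages, had 25.3, 30.1 and 12.5 CPM in Lean and 2.11, 4.23 and 2.18 CPM in DIO calli. Lean replicate 2 was the highest library for each of these genes, and without it the log2 differences were -3.67 for Ear1, -2.91 for Prg2 and -2.38 for Epx. Transcripts of Ear1 and Ear2 share a stretch of 717 bases at 96.4% identity, so reads may have been split between these paralogs and their separate values are uncertain. Of 8 mast cell and basophil genes, a subgroup also drawn later, 7 were tested and all 7 had a lower mean, 3 with p under 0.05 (9.09% over the whole table). Their median log2 difference was -0.88, and from -1.43 to -0.42 when 1 callus was left out.

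Red cell precursors were represented by 30 genes, of which 29 were tested. All 29 had a lower mean in DIO calli (49% over the whole table). p was under 0.05 for 24 (9.09%), the groups did not overlap for 18 (11.4%), and DESeq2 called 18 (3.77%). The median log2 difference was -2.35 and, without Lean replicate 2, -1.48. Lean calli varied widely here: the list summed to 3801, 8643 and 1497 CPM in Lean and 1219, 1354 and 1269 CPM in DIO calli. The DIO calli were alike, while Lean replicate 3 lay close to them and Lean replicate 2 far above.

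Alas2, which starts haem synthesis in red cell precursors, showed this spread with 137, 307 and 40.02 CPM in Lean and 30.4, 33.5 and 30.7 CPM in DIO calli. The beta-globin Hbb-bs had 1552, 3565 and 607 CPM in Lean and 433, 498 and 473 CPM in DIO calli and the alpha-globin Hba-a1 526, 1148 and 179 CPM in Lean and 156, 172 and 151 CPM in DIO calli; Hba-a1 has a near-identical partner, Hba-a2, with which reads may be shared. Other red cell precursor genes were further apart than the globins. Car1, a carbonic anhydrase of red cells, had 18.2, 69.9 and 9.48 CPM in Lean and 0.893, 3.01 and 2.18 CPM in DIO calli (log2 difference -3.97 ± 0.78), and Klf1, the transcription factor that drives the erythroid programme, had 15.7, 42.8 and 4.18 CPM in Lean and 1.15, 2.44 and 2.18 CPM in DIO calli (-3.43 ± 0.77). Without Lean replicate 2 these differences were -2.74 and -2.34.

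Megakaryocytes and platelets gave a smaller difference in the same direction. All 24 tested genes of this list had a lower mean (49% over the whole table). Of these, 11 had p under 0.05 (9.09%), 9 were without overlap (11.4%) and DESeq2 called 3 (3.77%). The median log2 difference was -1.23, and -0.74 without Lean replicate 2. Pf4, the platelet chemokine, had 196, 235 and 259.8 CPM in Lean and 185, 169.9 and 155 CPM in DIO calli (-0.44 ± 0.14). Itga2b, the platelet fibrinogen receptor subunit, overlapped between the groups with 100.3, 220.3 and 140.1 CPM in Lean and 29.03, 109 and 84.1 CPM in DIO calli. Nfe2, a transcription factor of megakaryocytes and red cell precursors, was further apart, with 72.04, 161 and 62.6 CPM in Lean and 17.2, 31.1 and 21.3 CPM in DIO calli (-2.08 ± 0.38).

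Neutrophil, erythroid and megakaryocyte genes thus had lower values together, and in Lean replicate 2 all of these lists were at their highest. The eosinophil genes are left out here because they were picked on these same values. These lineages are made in marrow, and the part of the marrow content of a callus in these values was not tested. A list of marrow stroma and progenitor genes was not lower as a whole, and it does not measure stroma alone. The list also holds the proliferation marker Mki67 and the osteoclast gene Ctsk. Of its 27 genes, 13 had a lower and 14 a higher mean (median log2 difference 0.009), although Vcam1, the adhesion molecule of stromal and endothelial cells, had 64.5, 119.7 and 91.7 CPM in Lean and 37.3, 59.3 and 48.01 CPM in DIO calli and Kit, the stem cell factor receptor, 20.5, 30.6 and 21.2 CPM in Lean and 15.3, 13.3 and 15.6 CPM in DIO calli, both without overlap. Cxcl12, the chemokine that retains blood cells in the marrow, overlapped (248, 575 and 346 CPM in Lean and 296, 323 and 198 CPM in DIO calli).

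B lineage and antibody genes had lower means in DIO calli, with a sum of 473, 1876 and 505 CPM in Lean and 138, 246 and 173 CPM in DIO calli. Of 30 genes, 22 were tested and all 22 had a lower mean (49% over the whole table). p was under 0.05 for 19 (9.09%), the groups did not overlap for 12 (11.4%), and DESeq2 called 10 (3.77%). The median log2 difference of -2.26 shrank to -0.88 without Lean replicate 2, which held most of the B cell signal. Cd79a, a signalling chain of the B cell receptor, had 4.23, 22.98 and 5.66 CPM in Lean and 1.72, 1.61 and 1.54 CPM in DIO calli, with the other Lean calli much closer to the DIO calli than Lean replicate 2. Ighm, the heavy chain of IgM, had 169, 893 and 195 CPM in Lean and 55.7, 104 and 69.5 CPM in DIO calli and Igkc, the kappa light chain, 201, 614 and 183 CPM in Lean and 16.1, 78.1 and 50.4 CPM in DIO calli.

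Antibody secretion genes were apart in all 3 Lean calli. Jchain, which links antibody units into multimers, had 29.7, 83.6 and 24.7 CPM in Lean and 0.510, 8.90 and 6.66 CPM in DIO calli (log2 difference -3.08 ± 0.77, -2.31 without Lean replicate 2). Igha, the heavy chain of IgA and a gene picked after its values were seen, had 164, 72.9 and 80.7 CPM in Lean and 3.32, 9.03 and 18.7 CPM in DIO calli (-3.36 ± 0.57), with its highest value in Lean replicate 1 rather than replicate 2. Constant-region genes of antibodies are counted here per locus and say nothing of the antigens recognised.

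Of 38 listed T and NK cell genes 23 had enough counts to test. The T cell receptor chain Cd3e reached at most 1.02 CPM and the NK receptor Ncr1 at most 0.679 CPM in any callus. Among the tested genes 21 had a lower mean (49% over the whole table). Of these, 12 had p under 0.05 (9.09%), 9 were without overlap (11.4%) and DESeq2 called 6 (3.77%). The median log2 difference was -1.39, and -0.69 without Lean replicate 2. Cd4, the co-receptor of helper T cells that some myeloid cells also carry, was among the 10 lower genes of smallest p, with 11.9, 19.996 and 16.9 CPM in Lean and 2.81, 4.97 and 3.71 CPM in DIO calli (-2.08 ± 0.28). Nkg7, a granule protein of cytotoxic cells, had 14.4, 31.8 and 14.2 CPM in Lean and 3.57, 7.02 and 4.48 CPM in DIO calli, and Il2rb, the beta chain of the interleukin-2 and interleukin-15 receptors, 2.05, 7.24 and 3.49 CPM in Lean and 0.830, 1.40 and 0.832 CPM in DIO calli. Tcf7, a transcription factor of early T cells that mesenchymal cells also express, overlapped with a higher mean in DIO calli (53.8, 49.3 and 42.6 CPM in Lean and 35.3, 88.8 and 74.8 CPM in DIO calli).

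Macrophage genes gave a small difference that depended on which DIO callus was left out. Of 44 tested genes of monocytes and macrophages, 32 had a lower mean (49% over the whole table) and 12 a higher. p was under 0.05 for 8, all lower (9.09%). The groups did not overlap for 6 (11.4%) and DESeq2 called 3 (3.77%), all lower. The median log2 difference was -0.19, and -0.59 without DIO replicate 1 or -0.047 without DIO replicate 3. In those fits 23 and 4 genes of the list had p under 0.05, against 2458 of 16232 and 1462 of 16312 genes tested. The summed expression was 13408, 13167 and 13153 CPM in Lean and 15371, 10091 and 7988 CPM in DIO calli. Csf1r, the receptor on which macrophages depend, had 354, 327 and 362 CPM in Lean and 492, 345 and 273 CPM in DIO calli (log2 difference 0.089 ± 0.21). Adgre1, which encodes the F4/80 antigen, had 81.7, 86.9 and 90.7 CPM in Lean and 120.3, 81.95 and 48.2 CPM in DIO calli (-0.050 ± 0.28), and Cd68, a lysosomal glycoprotein, 278, 232 and 262 CPM in Lean and 338, 235 and 173 CPM in DIO calli (-0.049 ± 0.23).

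For these 3 genes DIO replicate 1 was the highest library and DIO replicate 3 the lowest, so the DIO calli spanned the Lean calli. Other genes of the list stood apart. Ly6c2, an antigen of inflammatory monocytes that immature granulocytes carry too, had 162, 281 and 120.3 CPM in Lean and 34.3, 52.8 and 33.03 CPM in DIO calli (-2.23 ± 0.32), and Chil1, a chitinase-like protein, had 66.9, 132 and 68.2 CPM in Lean and 19.1, 22.03 and 27.1 CPM in DIO calli (-1.97 ± 0.28). Ly6c2 shares a stretch of 595 bases at 98.3% identity with its neighbour Ly6c1, and reads may have been split between them. Ccr2, the receptor that draws monocytes from the blood, overlapped (97.5, 143 and 109.6 CPM in Lean and 134, 83.1 and 55.8 CPM in DIO calli). Cd5l, a macrophage protein linked to lipid handling, had 18.9, 28.2 and 15.5 CPM in Lean and 11.996, 10.1 and 8.19 CPM in DIO calli (-1.05 ± 0.25). Lyz2, the lysozyme gene of all myeloid cells, averaged 3753 ± 729 CPM in Lean and 2264 ± 924 CPM in DIO calli (SD, n = 3), and its groups overlapped; part of its reads may belong to the near-identical Lyz1.

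Genes of antigen presentation had slightly lower means. Of 26 tested genes of dendritic cells and of MHC class II, 22 had a lower mean (49% over the whole table). Of these, 6 had p under 0.05 (9.09%), 7 were without overlap (11.4%) and DESeq2 called 3 (3.77%). The median log2 difference was -0.36. Cd74, the invariant chain of MHC class II, had 294, 429 and 519 CPM in Lean and 379.9, 381 and 202 CPM in DIO calli, and the class II chain H2-Aa 143, 249.9 and 319 CPM in Lean and 207, 196 and 105 CPM in DIO calli; both overlapped. Irf8, a transcription factor of dendritic cells and monocytes, did not overlap (89.7, 111 and 79.3 CPM in Lean and 77.1, 45.7 and 34.8 CPM in DIO calli, log2 difference -0.83 ± 0.27), nor did Siglech of plasmacytoid dendritic cells (2.30, 7.66 and 2.17 CPM in Lean and 1.53, 1.09 and 0.640 CPM in DIO calli). Of the co-stimulatory genes, Cd86 stood at 13.2, 17.4 and 16.7 CPM in Lean and 12.3, 11.03 and 8.45 CPM in DIO calli, Cd80 at 4.29, 5.51 and 3.76 CPM in Lean and 4.08, 4.49 and 3.71 CPM in DIO calli and Cd40 at 8.33, 8.15 and 12.1 CPM in Lean and 8.93, 6.59 and 7.55 CPM in DIO calli. The groups were apart for Cd86 (-0.57 ± 0.20) and overlapped for Cd80 (-0.14 ± 0.24) and Cd40 (-0.31 ± 0.23), and Tnfsf18, which encodes GITRL, had too few counts to test.

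**Figure D3:**
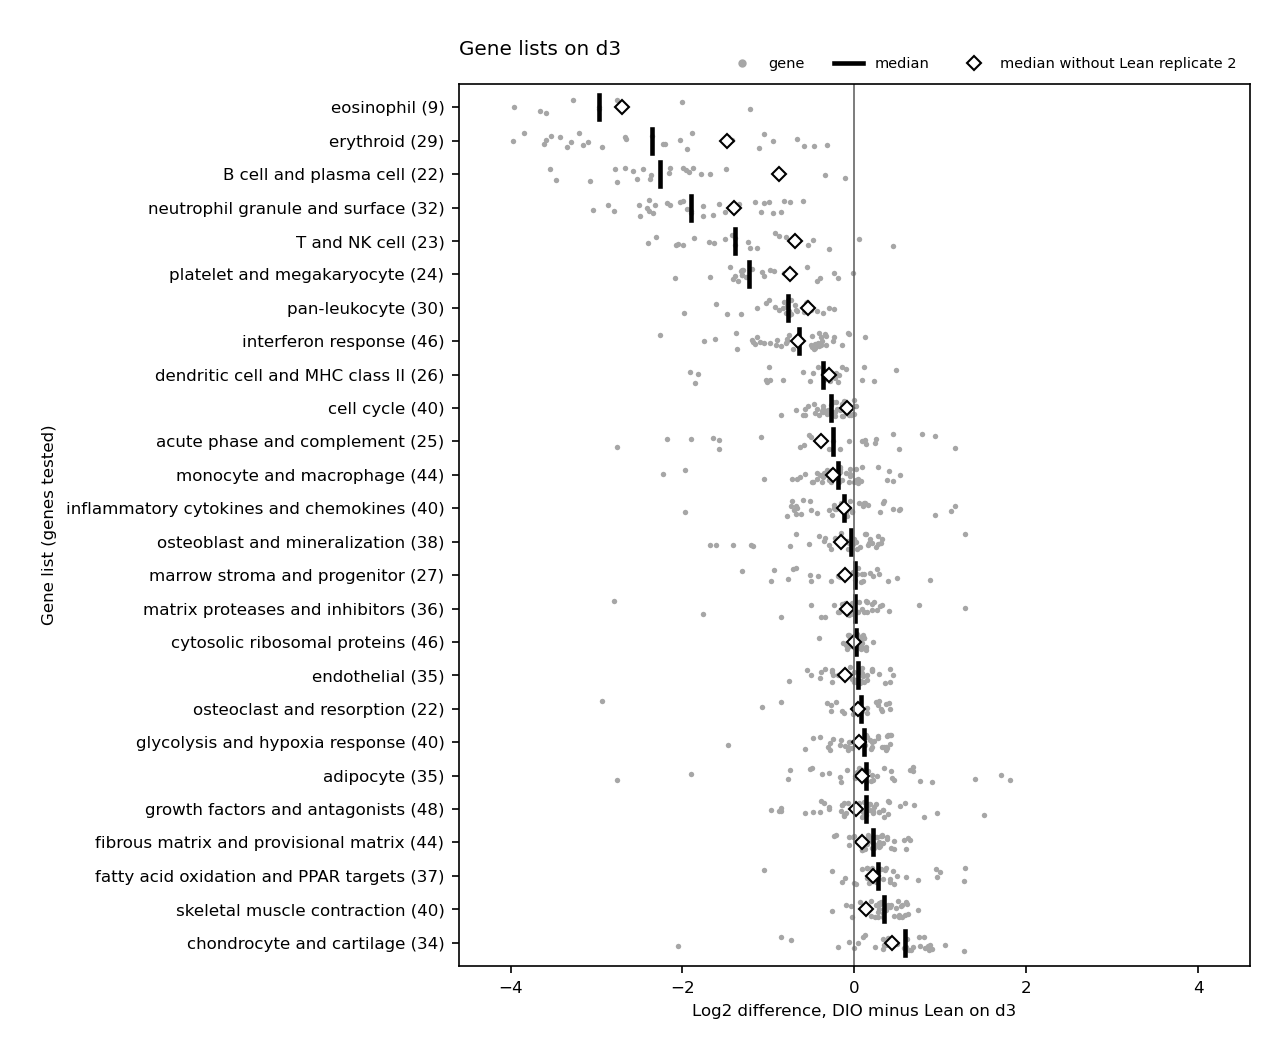
Log2 difference of DIO minus Lean calli on d3 for 26 gene lists: grey points are single genes, black bars the list medians, and open diamonds the medians without Lean replicate 2. Blood and marrow lineages lie to the left of 0, with medians of the planned lists from -2.35 (erythroid) to -0.19 (monocyte and macrophage). Cartilage, muscle contraction and fatty acid oxidation lie to the right. The eosinophil genes (median -2.98) were picked on these same values, so their place in the order is not a result.

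The 30 pan-leukocyte genes, which most white blood cells express, all had lower means in DIO calli (49% over the whole table). Of these, 24 had p under 0.05 (9.09%), 20 were without overlap (11.4%) and DESeq2 called 15 (3.77%). The median log2 difference was -0.77, and -0.54 without Lean replicate 2. Ptprc, the common leukocyte antigen CD45, had 147, 269.9 and 149 CPM in Lean and 138, 111 and 69.5 CPM in DIO calli (-0.83 ± 0.30), which is a narrow gap. Rac2, a small GTPase that neutrophils need for their oxidative burst, was further apart (313, 556 and 284 CPM in Lean and 134, 153 and 92.4 CPM in DIO calli, -1.61 ± 0.29). The neutrophil and erythroid medians were thus larger in size than that of the pan-leukocyte genes, and the macrophage median smaller; these medians were not tested against each other.

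Interferon-stimulated genes, which cells switch on when interferon receptors signal, had lower means in DIO calli almost throughout. Of 46 tested, 45 had a lower mean (49% over the whole table), 14 with p under 0.05 (9.09%), 10 without overlap (11.4%) and 9 called by DESeq2 (3.77%). The median log2 difference was -0.65, and from -0.90 to -0.37 when 1 callus was left out. Rsad2, the antiviral enzyme viperin, had 23.9, 52.6 and 25.1 CPM in Lean and 13.7, 7.33 and 9.35 CPM in DIO calli (-1.75 ± 0.35). Cmpk2, its neighbour in the genome, had 15.4, 29.4 and 17.7 CPM in Lean and 10.1, 4.23 and 6.21 CPM in DIO calli (-1.62 ± 0.36). Ifi47, an interferon-inducible GTPase, had 13.7, 26.6 and 29.3 CPM in Lean and 11.9, 9.86 and 10.2 CPM in DIO calli (-1.13 ± 0.27).

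The helicase Ifih1, a sensor of double-stranded RNA, was apart by a smaller step (17.1, 18.9 and 22.4 CPM in Lean and 14.9, 10.99 and 11.3 CPM in DIO calli), whereas Stat2, the transcription factor downstream of type I interferon, overlapped (55.8, 71.4 and 77.5 CPM in Lean and 78.8, 49.7 and 56.8 CPM in DIO calli). DIO replicate 1 was the highest DIO callus for Rsad2, Cmpk2, Ifih1 and Stat2. The exception to the direction was Oas2, named after its values were seen, with 38.9, 46.5 and 46.2 CPM in Lean and 76.8, 31.8 and 35.6 CPM in DIO calli. Interferon and leukocyte genes had lower means in the same calli, and the part of leukocyte content in the interferon values was not tested.

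Inflammatory cytokines and chemokines did not share one direction. Of 40 tested, 26 had a lower and 14 a higher mean (49% and 51% over the whole table). p was under 0.05 for 4 lower (9.09%) and 3 higher genes (5.97%), and DESeq2 called 2 (3.77%) and 3 (0.85%). The median log2 difference was -0.12. Tnf had 7.71, 9.81 and 5.61 CPM in Lean and 6.06, 3.71 and 4.80 CPM in DIO calli, which overlapped, while Osm, oncostatin M, a cytokine of neutrophils and macrophages that acts on bone-forming cells, had 14.5, 16.1 and 11.3 CPM in Lean and 7.08, 9.33 and 7.87 CPM in DIO calli (-0.79 ± 0.20). Il1rn, the natural antagonist of interleukin-1, had 54.2, 53.7 and 37.3 CPM in Lean and 35.4, 34.2 and 21.7 CPM in DIO calli. Chemokines that attract neutrophils did not share a direction. Cxcl1 had 5.84, 5.40 and 3.07 CPM in Lean and 8.87, 13.5 and 8.90 CPM in DIO calli (1.13 ± 0.30) and did not overlap, and Cxcl5 had 35.2, 22.6 and 20.7 CPM in Lean and 50.2, 66.2 and 34.1 CPM in DIO calli (0.94 ± 0.28) with a narrow overlap. Cxcl2 and Cxcl3, added after their values were seen, had lower means and overlapped (-0.24 ± 0.27 and -0.50 ± 0.33). Their shared receptor, Cxcr2, had lower values, as given above.

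Acute phase genes were divided in the same way. Of 25 tested acute phase and complement genes, 15 had a lower mean (49% over the whole table). p was under 0.05 for 7 lower (9.09%) and 2 higher genes (5.97%), and DESeq2 called 4 lower (3.77%) and 1 higher (0.85%). C3, the central complement protein, had 184, 300.3 and 196 CPM in Lean and 129, 110.0 and 80.7 CPM in DIO calli (-1.09 ± 0.23), and Hp, haptoglobin, which captures free haemoglobin and is stored in neutrophil granules, had 230.4, 457 and 441 CPM in Lean and 175, 123 and 80.5 CPM in DIO calli (-1.58 ± 0.33). Orm1, an acid glycoprotein, had 6.46, 11.7 and 4.92 CPM in Lean and 1.40, 2.22 and 2.56 CPM in DIO calli. Saa3, the serum amyloid A made outside the liver by fibroblasts, fat cells and macrophages, went against them with 9.32, 12.1 and 15.4 CPM in Lean and 28.7, 31.1 and 23.2 CPM in DIO calli. It was one of the 10 higher genes of smallest p (log2 difference 1.17 ± 0.21, edgeR adjusted p 0.0930), and its value was 1.16 without Lean replicate 2.

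Among the genes with higher values in DIO calli, the 10 of smallest p were Fndc1, Peg3, Slc7a2, Mn1, Sln, Ahdc1, Saa3, Prelp, Megf6 and Krba1, with edgeR adjusted p from 0.0787 to 0.0979. Fndc1, a fibronectin type III domain protein (ENSMUSG00000071984, chr17:7738569-7827302), had 133, 117 and 137 CPM in Lean and 297, 212 and 269.8 CPM in DIO calli (log2 difference 1.01 ± 0.15). Peg3, an imprinted zinc-finger gene expressed from the paternal copy, had 64.96, 53.05 and 62.1 CPM in Lean and 92.7, 102 and 104 CPM in DIO calli (0.73 ± 0.12). Slc7a2, a carrier of arginine and lysine, had 33.2, 28.2 and 35.8 CPM in Lean and 54.4, 54.1 and 52.9 CPM in DIO calli (0.73 ± 0.12). Differences of this set were small but tight, with every DIO callus above every Lean callus. Both the tightness and the lack of overlap follow in part from choosing genes by smallest p, so they are a description only. Among all 15772 tested genes, every DIO callus lay above every Lean callus for 1528 (9.69%).

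Sln was the exception in size. It encodes sarcolipin, a small membrane peptide that uncouples the calcium pump of the sarcoplasmic reticulum and so turns ATP into heat. Its values were 3.05, 3.28 and 3.07 CPM in Lean and 38.9, 10.7 and 14.9 CPM in DIO calli, a log2 difference of 2.77 ± 0.47. The Lean calli were nearly equal, and DIO replicate 1 was the highest library. Higher genes had a higher GC content than the rest: the median was 56.1% for the 134 genes that DESeq2 called higher, 49.98% for the 594 it called lower, and 49.9% over all genes tested. When each library was also scaled by GC content, an alternative added after the data were seen, 2311 genes had p under 0.05 and 1103 of them were higher, and again 0 passed the adjusted threshold.

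**Figure D4:**
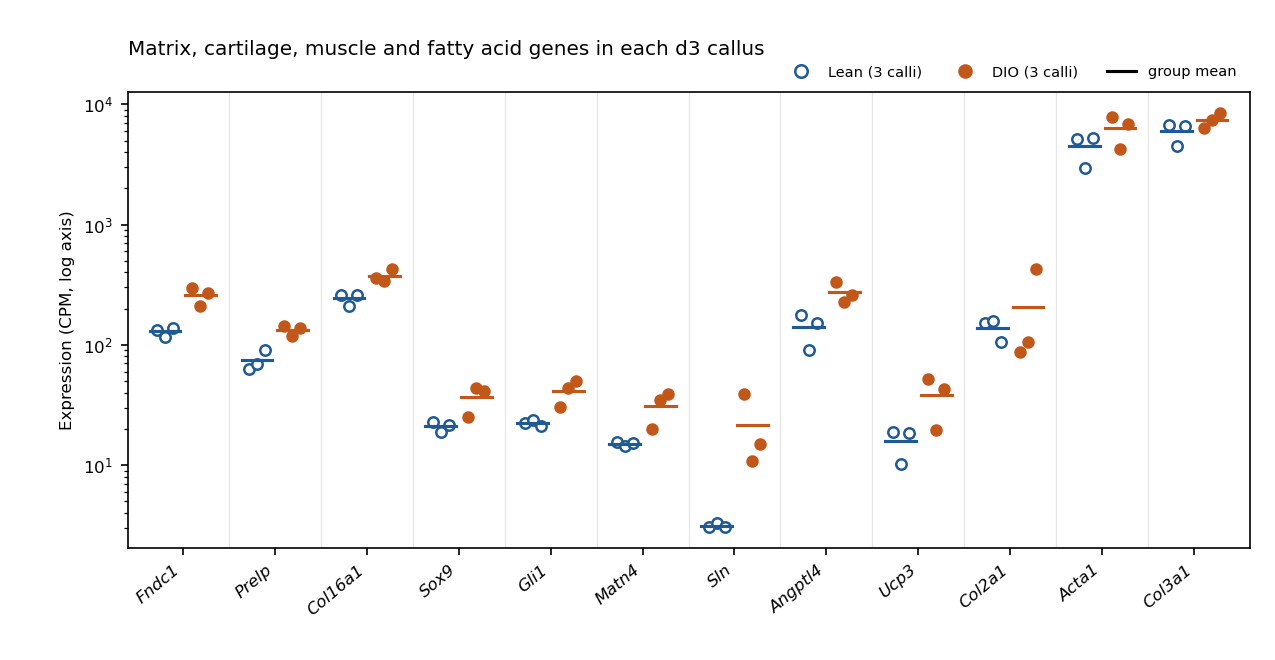
Expression (CPM, log axis) in each d3 callus of 12 genes of matrix, cartilage, muscle and fatty acid use, with open circles for Lean, filled circles for DIO and short lines for group means. DIO values lie above all Lean values for 9 of the 12 genes and overlap for Col2a1, Acta1 and Col3a1.

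Cartilage genes had mostly higher means in DIO calli, at a time when little cartilage has formed. Of 34 tested, 29 had a higher mean (51% over the whole table), p was under 0.05 for 10 (5.97%), the groups did not overlap for 8 (9.69%), and DESeq2 called 3 (0.85%). The median log2 difference was 0.58, and 0.44 without Lean replicate 2; without DIO replicate 3 it was 0.18. Sox9, the transcription factor that commits cells to cartilage, had 22.6, 18.7 and 21.5 CPM in Lean and 25.3, 43.9 and 41.2 CPM in DIO calli (0.82 ± 0.21). Gli1, a target of hedgehog signalling, had 22.2, 23.8 and 21.2 CPM in Lean and 30.5, 43.4 and 50.1 CPM in DIO calli (0.88 ± 0.18), and Matn4, a matrilin of the cartilage matrix, 15.4, 14.5 and 15.3 CPM in Lean and 19.8, 34.8 and 38.98 CPM in DIO calli (1.05 ± 0.24).

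The major cartilage matrix genes rested on 1 library. Col2a1, the collagen of cartilage, had 151, 158 and 106 CPM in Lean and 86.5, 105 and 432 CPM in DIO calli, with a log2 difference of 0.59 ± 0.55 that turned to -0.527 without DIO replicate 3. Acan, the proteoglycan aggrecan, had 263, 191 and 189 CPM in Lean and 195, 282 and 504 CPM in DIO calli. Fgfr3, a receptor that restrains chondrocyte growth, had 54.8, 58.03 and 56.3 CPM in Lean and 59.8, 91.1 and 117 CPM in DIO calli and did not overlap. Col10a1, the collagen of hypertrophic cartilage, was low except in Lean replicate 1 (22.6, 1.74 and 1.16 CPM in Lean and 0.893, 0.654 and 4.67 CPM in DIO calli). DIO replicate 3 was the highest library for Col2a1, Acan, Fgfr3, Gli1 and Matn4.

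Fibrous matrix genes had higher means in 38 of 44 cases (51% over the whole table), with a small median log2 difference of 0.22. p was under 0.05 for 4 (5.97%), the groups did not overlap for 7 (9.69%), and DESeq2 called 2 (0.85%). Col16a1, a collagen that associates with fibrils, had 262, 210.1 and 258 CPM in Lean and 362, 342 and 426 CPM in DIO calli (0.63 ± 0.14). P4ha3, a prolyl hydroxylase subunit that modifies collagen, had 57.9, 34.7 and 54.6 CPM in Lean and 76.5, 79.9 and 74.4 CPM in DIO calli (0.65 ± 0.18). The most abundant collagens overlapped: Col1a1 averaged 22718 ± 4469 CPM in Lean and 24694 ± 7663 CPM in DIO calli (SD, n = 3), and Col3a1 had 6796, 4504 and 6582 CPM in Lean and 6333, 7427 and 8472 CPM in DIO calli. Prelp, a leucine-rich proteoglycan, had 63.5, 69.8 and 90.2 CPM in Lean and 143, 118 and 137 CPM in DIO calli (0.83 ± 0.15). Without Lean replicate 2, the lowest Lean callus for Col1a1 and Col3a1, the list median was 0.086.

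Bone-forming and bone-resorbing cells showed no shared direction. Of 38 osteoblast genes 23 had a lower mean, with a median log2 difference of -0.039, and of 22 osteoclast genes 10 had a lower mean (0.082). Ibsp, bone sialoprotein, had 3647, 2840.1 and 4164 CPM in Lean and 1691, 4949 and 5300.5 CPM in DIO calli, and Ctsk, the collagen-degrading cathepsin of osteoclasts, 305, 322 and 365 CPM in Lean and 239, 399 and 406 CPM in DIO calli. Both were lowest in DIO replicate 1 and overlapped between the groups. Mepe, a matrix protein of osteocytes, did not overlap, with 74.8, 116 and 169 CPM in Lean and 39.6, 60.7 and 58.3 CPM in DIO calli (-1.18 ± 0.29). Osteocalcin, Bglap, whose transcript is nearly identical to those of Bglap2 and Bglap3, varied more within the Lean group than between the groups (4.97, 26.9 and 59.3 CPM in Lean and 12.1, 15.4 and 6.85 CPM in DIO calli).

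Muscle contraction genes had a higher mean in 36 of 40 cases (51% over the whole table), with a median log2 difference of 0.34. p was under 0.05 for 4 (5.97%) and the groups did not overlap for 2 (9.69%). Myh4, the fast myosin heavy chain, had 1258, 1073 and 1406 CPM in Lean and 2737, 1812 and 1683 CPM in DIO calli (0.74 ± 0.22), and Ckm, muscle creatine kinase, 1724, 1239 and 2267 CPM in Lean and 3503, 1917 and 2563 CPM in DIO calli. The list sum was 26273, 17940.4 and 29247 CPM in Lean and 41298, 23952 and 33336 CPM in DIO calli. Lean replicate 2 had the lowest and DIO replicate 1 the highest sum, and without Lean replicate 2 the median was 0.14. The gap in Sln was wider than that of any of these genes; it was not tested against them. Genes of muscle regeneration had no shared direction (13 of 28 lower), with the satellite cell factors Pax7 and Myod1 overlapping, and H19, an imprinted RNA of growing tissue, at 484, 302 and 371 CPM in Lean and 609, 1145 and 604 CPM in DIO calli.

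Genes of fatty acid oxidation and PPAR targets had a higher mean in 32 of 37 cases (51% over the whole table). Of the higher genes, 9 had p under 0.05 (5.97%), 10 were without overlap (9.69%) and 2 were called by DESeq2 (0.85%). The median log2 difference was 0.28, and 0.21 without Lean replicate 2. Angptl4, a secreted inhibitor of lipoprotein lipase that fatty acids induce, had 178, 89.9 and 151 CPM in Lean and 330.4, 228 and 261 CPM in DIO calli (0.97 ± 0.25). Ucp3, the uncoupling protein of muscle mitochondria, had 18.8, 10.3 and 18.4 CPM in Lean and 52.3, 19.6 and 43.1 CPM in DIO calli (1.28 ± 0.37). Acaa2, which carries out the last step of mitochondrial beta-oxidation, had 67.9, 66.9 and 83.9 CPM in Lean and 110.3, 96.5 and 94.4 CPM in DIO calli (0.46 ± 0.13). Plin5, which coats lipid droplets in oxidative tissue and belongs to the adipocyte list, had 1.24, 2.15 and 2.91 CPM in Lean and 10.8, 3.84 and 6.21 CPM in DIO calli (1.71 ± 0.44).

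DIO replicate 1, the callus with the highest muscle sum, was the highest for Angptl4, Ucp3, Acaa2 and Plin5, and the part of muscle content in these values was not tested. Of the 35 tested adipocyte genes 24 had a higher (51% over the whole table) and 11 a lower mean, with 5 at p under 0.05 in each direction (5.97% higher and 9.09% lower over the table) and a median log2 difference of 0.13 that was -0.15 without DIO replicate 1. Single genes of the list went either way. Adipoq, adiponectin, had 3.17, 14.4 and 24.4 CPM in Lean and 4.72, 3.84 and 2.69 CPM in DIO calli and overlapped, and Pparg, the regulator of fat cell formation, had 7.27, 9.66 and 10.6 CPM in Lean and 6.70, 4.80 and 4.67 CPM in DIO calli (-0.77 ± 0.24) and did not. Plin1 and Cidec, which coat the lipid droplets of mature fat cells, were above 4 CPM only in Lean replicate 3 and DIO replicate 1 (Plin1 0, 0.302 and 5.19 CPM in Lean and 4.34, 0.611 and 0.640 CPM in DIO calli). Dgat2 and Agpat2, enzymes of triglyceride synthesis, had lower values (30.96, 37.4 and 31.2 CPM in Lean and 25.3, 22.4 and 21.9 CPM in DIO calli for Dgat2, 60.6, 69.2 and 61.1 CPM in Lean and 45.8, 45.6 and 44.6 CPM in DIO calli for Agpat2).

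Several lists with a role in healing differed little between the diets. Medians of the log2 difference were 0.061 for cholesterol synthesis, 0.009 for matrix proteases, 0.14 for growth factors, 0.048 for endothelial cells, 0.10 for the secretory pathway and 0.015 for ribosomal proteins. Cell cycle genes had a lower mean in 38 of 40 cases (-0.27), but only 2 had p under 0.05 (9.09% over the whole table). None was without overlap (11.4%), and the median was -0.086 without Lean replicate 2. Mki67, the proliferation marker, had 382, 682 and 263 CPM in Lean and 236, 313 and 280.2 CPM in DIO calli. The hypoxia and glycolysis list was mixed (16 of 40 lower): Slc2a3, the glucose carrier of leukocytes and neurons, had 76.6, 165 and 84.8 CPM in Lean and 24.2, 53.5 and 40.4 CPM in DIO calli, and Ldha, lactate dehydrogenase, 1213, 988 and 1160.2 CPM in Lean and 1528, 1367 and 1596 CPM in DIO calli.

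In the 24 libraries of d3, d5, d7 and d10, the DIO minus Lean difference of d3 was compared with the mean of the same difference on the other 3 days. That mean includes d10, where the medians of several lists had the opposite sign. A gene can therefore differ from the mean without its difference being particular to d3. Each day used other mice. Of 17057 genes, 0 (0%) passed an adjusted p of 0.05 in edgeR's quasi-likelihood test (smallest 0.375), 1216 (7.13%) had an unadjusted p under 0.05, 678 (3.97%) with a more positive and 538 (3.15%) with a more negative difference on d3, and DESeq2 called 9. With a single day in place of the mean, 736 genes had an unadjusted p under 0.05 in edgeR's test for d5, 1433 for d7 and 3114 for d10. Against the mean of the 3 days, 8 of the 32 neutrophil genes had an unadjusted p under 0.05, all with a more negative difference on d3. Of the 29 erythroid genes 3 did so. The eosinophil genes were picked on d3 values, so no count is given for them here.

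The list medians show how the differences ran over the days. For neutrophil genes the median DIO minus Lean log2 difference began at -1.89 on d3 and came to -1.72 on d5, -0.55 on d7 and, with its sign turned, 0.53 on d10. Eosinophil genes went from -2.97 on d3 to -1.25, -0.89 and 0.68, the d3 value being in part fixed by how they were picked. Erythroid genes went from -2.34 to -2.12, -0.67 and 0.83. Macrophage genes had -0.19, -0.52, -0.66 and 0.13. With all calli, neutrophil and erythroid genes thus had their most negative median on d3 and macrophage genes on d7. All 3 lists had positive medians on d10. In the fit of d3 alone without Lean replicate 2, the median was -1.40 for neutrophil and -1.48 for erythroid genes. Both are less negative than the d5 medians, so the order of d3 and d5 rested on that library.

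Interferon genes had medians of -0.64, -1.40, -1.07 and 0.39 on the same days. Cartilage genes, of which 39 could be tested in the 24 libraries, had 0.41, 0.86, 1.41 and -1.79. The cartilage median thus had the sign of d3 on d5 and d7, was larger there, and had the opposite sign on d10. Tnfrsf14, Fndc1 and Sln were chosen for their small p on d3, which favours a large difference on that day, so their values by day are a description only. Tnfrsf14 had differences of -2.61, -0.98, -0.57 and 1.35. Fndc1 had 1.02, 0.36, 0.53 and -0.30, and Sln 2.78, 0.90, 0.53 and -0.97. The d3 difference against the mean of the other days was -2.54 ± 0.72 for Tnfrsf14, 0.82 ± 0.23 for Fndc1 and 2.63 ± 0.87 for Sln, with edgeR adjusted p of 0.531, 0.531 and 0.624.

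**Figure D5:**
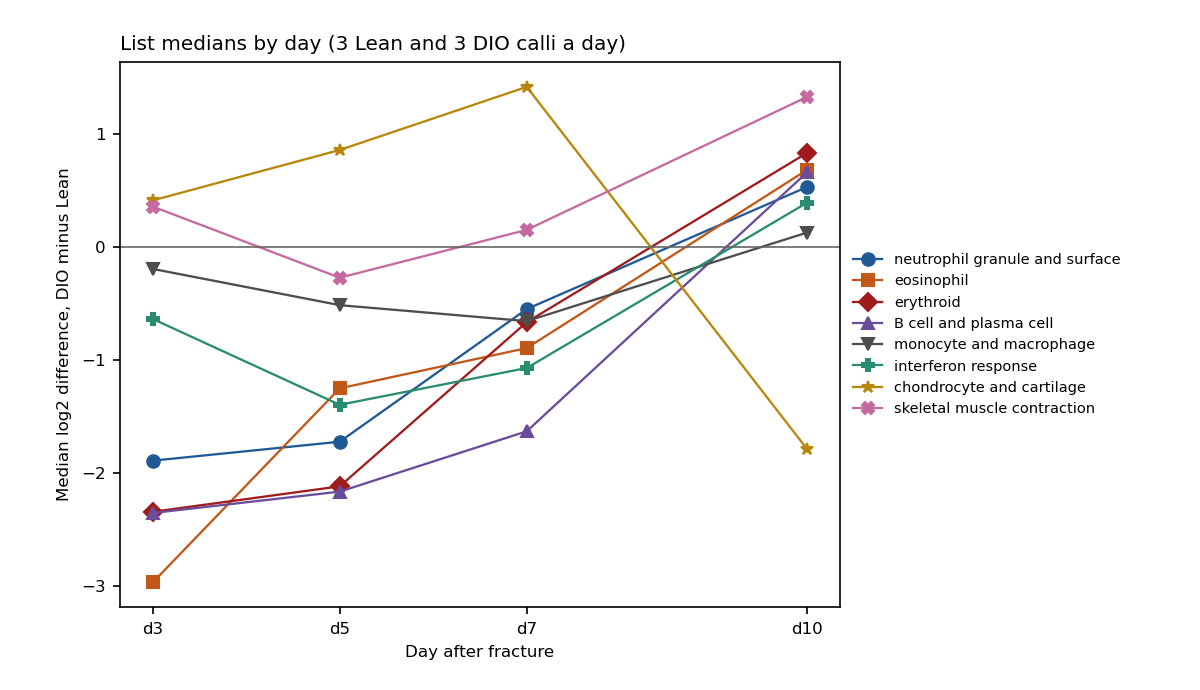
Median DIO minus Lean log2 difference of 8 gene lists on d3, d5, d7 and d10, from 1 fit of 24 libraries with 3 calli per diet and day. Points are list medians joined by lines for reading only; the neutrophil line runs from -1.89 on d3 to 0.53 on d10, and the cartilage line from 0.41 to -1.79.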

How the data were processed

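Callus RNA of 30 mice was sequenced as poly(A) libraries on a NovaSeq after Illumina Stranded mRNA Prep. Per the labels and the study's methods, the authors made FASTQ files with bcl2fastq, trimmed the reads with BBDuk (trimq and maq 10), aligned them to mouse GRCm38 with HISAT2 2.1.0 and counted them per gene with HTSeq, and they deposited the raw counts as 1 table without normalization. The HTSeq version, its strand setting and the annotation were not given in the sources used here. Where strand was not used, reads of overlapping antisense genes cannot be told apart.

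Groups were taken from the labels, and each library is a separate mouse. Library totals ran from 15597137 to 26365620 counts, and counts bound the precision for genes of few CPM. Of the 43629 gene identifiers, 42462 were matched to GENCODE M21 for symbols and GRCm38 coordinates. Promoter sequences came from RefSeq on GRCm38.p6 and the motif was searched on both strands. Transcripts of 424 named or listed genes were compared with those of other genes by BLAST 2.17.0, and 130 shared a stretch of at least 100 bases at 95% identity or more. Among these were Saa3 (49 other genes), Slc7a2 (56), Csf3r (56) and Cxcr2 (94).

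The 6 d3 libraries were fitted in edgeR 4.0.16 (R 4.3.3) with filterByExpr, TMM factors and the quasi-likelihood F test, with Benjamini-Hochberg adjustment over all 15772 genes and a threshold of 0.05. CPM values use the TMM factors. The comparison of days used the 24 libraries of d3 to d10 with a term for each diet and day. Alternatives, whose effect is given in the closing section, were other scaling factors, DESeq2 1.42.0, limma 3.58.1 voom with sample weights, other filters, the replicate number as a block, more libraries in the fit, a 1.5-fold threshold and each callus left out. Robust dispersion, bias-adjusted deviances, GC content offsets and an adjusted p of 0.1 were added after the data were seen. Scripts were tested on simulated data. A few named genes are not reported here.

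The comparison and the 38 gene lists were chosen with earlier results of these data known, and a few subgroups were drawn later, as stated beside them. Genes were named by smallest p, by highest CPM within a list, as defining markers of a cell type or because the study names them, and a gene named for another reason is marked as picked once its values were known. No set test was run, so lists are described by counts and medians beside the same counts over all genes. With 3 against 3 calli, 20 splits exist and an exact two-sided permutation test of 1 value cannot go below 0.1, so none was made for single values.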

Additional observations from a re-analysis of the deposited data

How the results depend on the processing

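The count of genes past the threshold on d3, 0 in edgeR's quasi-likelihood test with TMM factors, depended on the tool and the libraries. It stayed at 0 with RLE factors, with all 30 or the 24 libraries in 1 fit, with a 1.5-fold threshold, with robust dispersion, with bias-adjusted deviances and with GC content offsets. It was 1 with upper-quartile factors and with a filter of 0.5 CPM in 1 library, 33 with limma voom and sample weights (32 lower), 515 without a filter beyond 1 count (450 lower), 728 with DESeq2 (594 lower, with 309 adjusted p not given), and 114 at an adjusted p under 0.1. Leaving out 1 callus gave counts from 0 to 237: 237 without Lean replicate 3, 9 without Lean replicate 2 and 0 without any other. The cause of these differences was not tested. In the comparison of d3 with the later days the count of 0 became 9 with DESeq2 (8 more positive), 1 with d10 in place of the mean of 3 days, and from 0 to 1 when 1 callus of d3 was left out, the 1 being without Lean replicate 2.

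Lean and DIO libraries share the replicate numbers 1, 2 and 3, but each number is a separate mouse in each group. The correlation of same-numbered deviations from the group means was -0.037, 0.23 and 0.079, not every library correlated best with its own number, and the numbers were taken not to pair the libraries. With the replicate number as a block the d3 count was 325 (23 higher, 302 lower), and the count in the comparison of days stayed at 0.

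Of the 36 list medians given, 14 moved by more than the spread between calli in at least 1 fit, in each case when a callus was left out. Their ranges over the 6 such fits were -2.58 to -0.88 for B cell and plasma cell genes, 0.14 to 0.43 for HOX genes, 0.28 to 0.61 for Schwann cell genes, -1.65 to -0.69 for T and NK cell genes, -0.15 to 0.36 for adipocyte genes, -0.042 to 0.10 for cholesterol synthesis genes, 0.18 to 0.68 for cartilage genes, 0.10 to 0.27 for circadian genes, -2.63 to -1.94 for last granule genes, -1.47 to -0.76 for late surface receptor genes, -0.10 to 0.14 for marrow stroma genes, -1.43 to -0.42 for mast cell and basophil genes, -0.59 to -0.047 for monocyte and macrophage genes and -2.15 to -1.40 for neutrophil genes. The spread used was the SD of each list's mean log2 expression between calli of a diet, and a callus that stands apart widens it. Erythroid genes (spread 0.89) and platelet genes (0.59) were therefore not among the 14. Their medians still ranged from -2.81 to -1.48 and from -1.62 to -0.74 when a callus was left out. Medians close to 0 changed sign in 7 lists. In place of 51.2% of the variance, the first component took 48.6% with a prior count of 0.5 and 66.0% over the 1000 most variable genes.

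Of 130 genes given with values, 79 passed the adjusted threshold with DESeq2, 72 without a filter, 54 with the block and 21 with voom, in their direction of the edgeR test. The log2 difference of 15 changed sign when a callus was left out, with ranges of -0.40 to 0.23 for Adgre1, -0.33 to 0.16 for Cd68, -0.26 to 0.030 for Cd80, -1.78 to 3.46 for Cidec, -3.46 to 0.48 for Col10a1, -0.048 to 0.36 for Col1a1, -0.53 to 0.96 for Col2a1, -0.17 to 0.27 for Csf1r, -0.046 to 0.29 for Ctsk, -0.39 to 0.011 for Cxcl2, -0.093 to 0.53 for Ibsp, -0.63 to 0.26 for Myod1, -0.38 to 0.36 for Oas2, -0.95 to 0.016 for Pax7 and -1.53 to 3.32 for Plin1. Other settings turned the sign of Cidec (-0.047), Csf1r (-0.11) and Oas2 (-0.21) with voom, of Plin1 with bias-adjusted deviances (-0.016), and of Adgre1 (0.042), Cd80 (0.00461) and Plin1 (-0.048) with GC content offsets. Depth limits lists with many genes too low to test, such as tendon, synovium and skin (10 of 20 tested) and T and NK cells (23 of 38).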

Other observations

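Peripheral nerve, tendon and clock genes were not described above and had mostly higher means in DIO calli. Of 19 tested Schwann cell and myelin genes, 17 had a higher mean, 3 with an unadjusted p under 0.05 in edgeR's quasi-likelihood test (5.97% over all genes) and 5 without overlap (9.69%), with a median log2 difference of 0.45. Prx, periaxin, which stabilises the myelin sheath, had 7.89, 5.85 and 9.32 CPM in Lean and 13.4, 10.7 and 11.9 CPM in DIO calli. Of 20 genes of tendon, synovium and skin only 10 could be tested, and 9 of them had a higher mean (median 0.57), among them Tnmd, the tendon glycoprotein tenomodulin, with 4.41, 8.22 and 9.37 CPM in Lean and 19.02, 10.4 and 11.8 CPM in DIO calli. The soft tissue around the callus had been removed before RNA was taken, and what was left of it in each callus was not tested.

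Circadian clock genes had a higher mean in 15 of 22 cases (51% over the whole table), with p under 0.05 for 6 (5.97%) and no overlap for 5 (9.69%). Their median was 0.14. Per1, a repressor of the clock, had 27.2, 40.8 and 35.2 CPM in Lean and 41.8, 55.2 and 42.95 CPM in DIO calli, and Npas2, an activator, 9.57, 7.02 and 6.99 CPM in Lean and 10.4, 11.9 and 12.6 CPM in DIO calli; neither overlapped between the groups. The hour of harvest of each mouse was not used here. HOX genes, which mark position along the limb, had a higher mean in 20 of 26 cases (51% over the whole table). Their median was 0.26, and p was under 0.05 for 2 (5.97%). Nuclear genes of the respiratory chain had a higher mean in 36 of 40 cases (51%), but the median was only 0.11 and p was under 0.05 for 2 (5.97%).

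Angptl7, Abi3bp and Pi16 were picked after their values were seen. Angptl7, a secreted angiopoietin-like protein, had 0.373, 1.28 and 0.953 CPM in Lean and 17.6, 4.36 and 4.29 CPM in DIO calli, and Abi3bp, a matrix protein that binds ABI3, 25.9, 32.2 and 36.6 CPM in Lean and 92.1, 56.4 and 54.3 CPM in DIO calli. In both, DIO replicate 1 was the highest library and the groups did not overlap, and edgeR's adjusted p was 0.112 for Angptl7 and 0.111 for Abi3bp. Pi16, a peptidase inhibitor of fibroblasts around vessels, was on the lower side with 41.3, 83.004 and 55.8 CPM in Lean and 22.3, 25.4 and 17.7 CPM in DIO calli (log2 difference -1.46 ± 0.25).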
